A study of Mus musculus with 28 samples.

Results

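The enteroendocrine lineage of the mouse small intestine was followed through 9 genes, picked by gene name: the progenitor factor Neurog3, the factors Neurod1, Insm1, Pax4 and Nkx2-2 that act downstream of it, the later lineage factors Pax6 and Isl1, and the granins Chga and Chgb of hormone-storing cells. All 9 were present among the 29413 genes of a table on bone morphogenetic proteins (the BMP table) and among the 55416 genes of a table on transforming growth factor beta (the TGFb table). The samples were small-intestinal organoids, which are 3-dimensional cultures of intestinal epithelium started from isolated crypts, from wild-type C57BL/6 mice. Among the 20 samples of the BMP table were 4 untreated controls and 4 treated with BMP2, while BMP7, BMP5, BMP4 and BMP3 had 3 each. The 6 samples of the other table were 3 untreated controls and 3 treated with Tgfb, an isoform not specified in the labels. Each ligand was a recombinant protein given at 500 ng/ml for 24 h. All organoids had first grown in ENR, a medium with epidermal growth factor, the BMP antagonist Noggin and R-spondin; whether Noggin was still present with the ligand is not given in the sources used here, nor is the age of the mice. The 5 BMP groups share the same controls, and the labels do not say whether replicates came from separate mice or cultures, so p-values measure the spread between these samples, which may be technical.

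Enteroendocrine cells are the rare hormone-secreting cells of the gut epithelium. They arise from crypt progenitors in which Notch signalling is low, pass through a short phase of Neurog3 expression, and then switch on a series of transcription factors, first Neurod1, Insm1, Pax4 and Nkx2-2 and then Pax6, Isl1 and others, before storing hormones in granules rich in the acidic proteins called granins. Neurog3 and Neurod1 are basic helix-loop-helix factors that bind E-box DNA together with E proteins such as Tcf3, Tcf4 and Tcf12, while the Id proteins, whose genes are classical BMP targets, hold E proteins in pairs that cannot bind DNA.

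Because Neurog3 and Neurod1 bind E-boxes, the 250 bases before the start site were read for those genes that moved most or carried the contrast between the factors and the granins. RefSeq promoters of build GRCm38.p6 were matched for 7 of the 9 genes. Insm1 and Pax4 were the others. The E-box was searched as CANNTG, which reads the same on both strands, and is in capitals, with sequences written 5′ to 3′ on the gene's own strand.

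Neurog3, chr10:62132840-62133089, plus strand: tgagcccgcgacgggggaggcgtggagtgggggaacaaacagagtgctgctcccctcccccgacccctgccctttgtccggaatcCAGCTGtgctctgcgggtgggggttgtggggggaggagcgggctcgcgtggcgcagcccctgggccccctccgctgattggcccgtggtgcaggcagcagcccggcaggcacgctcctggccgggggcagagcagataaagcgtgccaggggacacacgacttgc

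Neurod1, chr2:79456637-79456886, minus strand: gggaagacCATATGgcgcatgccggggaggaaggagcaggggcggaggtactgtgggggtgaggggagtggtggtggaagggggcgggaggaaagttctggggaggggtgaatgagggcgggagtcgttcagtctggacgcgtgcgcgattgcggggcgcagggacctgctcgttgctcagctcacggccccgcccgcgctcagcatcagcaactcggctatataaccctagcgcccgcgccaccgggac

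Nkx2-2, chr2:147186403-147186652, minus strand: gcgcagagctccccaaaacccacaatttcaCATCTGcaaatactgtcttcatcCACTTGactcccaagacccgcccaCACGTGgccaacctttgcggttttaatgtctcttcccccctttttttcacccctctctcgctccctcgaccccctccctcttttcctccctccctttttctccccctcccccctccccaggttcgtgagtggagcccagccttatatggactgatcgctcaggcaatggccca

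Chga, chr12:102554691-102554940, plus strand: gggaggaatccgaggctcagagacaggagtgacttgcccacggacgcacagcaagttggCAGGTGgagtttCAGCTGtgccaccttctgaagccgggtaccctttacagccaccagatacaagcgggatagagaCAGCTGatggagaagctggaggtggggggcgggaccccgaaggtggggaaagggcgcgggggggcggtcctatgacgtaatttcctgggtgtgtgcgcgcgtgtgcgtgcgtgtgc

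The windows of Neurog3 and Neurod1 held 1 E-box each, and those of Nkx2-2 and Chga held 3 each. Of the 32851 RefSeq mouse promoter windows of this length, 66.2% held at least 1 E-box and 12.2% held 3 or more. The form CAGCTG, found at 1 place in the Neurog3 and Isl1 windows and at 2 in the Chga window, was in 13.0% of all windows. Isl1 and Chgb had 1 E-box each, and Pax6, with 2 listed start sites, had 0 and 1. A match of letters is a description of the window and not a site of binding.

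Expression in untreated organoids can be compared between genes only per transcript length, which the TPM values of the TGFb table allow. Chgb was the most abundant of the 9, at 101 ± 6.4 TPM (SD, n = 3), followed by Chga at 22.9 ± 1.57 TPM. Neurog3 stood at 5.21 ± 0.699 TPM and Nkx2-2 at 4.73 ± 0.792 TPM, with overlapping samples. Insm1 was at 2.96 ± 0.26 TPM and Neurod1 at 2.25 ± 0.268 TPM. Isl1 (1.08 ± 0.246 TPM) and Pax6 (0.992 ± 0.341 TPM) overlapped, and Pax4 was lowest at 0.36 ± 0.137 TPM. The markers of enteroendocrine cells were thus all detected, with the granins far above the transcription factors.

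In the BMP table the values are read counts divided by a size factor per sample, called normalized counts here, in which 1 read was worth 0.826 to 1.28, at a depth of 21357512 to 24782115 reads per sample. The 7 epithelial marker genes, from Epcam to Krt20, were all present, with a summed level of 117000 to 133000 in the controls. Levels of markers of other cells are given with the last result. The summed stem cell and proliferation markers Lgr5, Olfm4, Mki67 and Top2a ran from 111000 to 139000 in the controls. They ran from 370 to 1520 for BMP2, from 6500 to 10600 for BMP4, from 35900 to 45000 for BMP7 and from 41600 to 92700 for BMP5. In the limma fit described below, 4 of these 4 genes were called lower with BMP2 and with BMP4, 2 with BMP7 and 0 with BMP5. Over all tested genes the shares called lower were 38.4%, 31.4%, 13.2% and 9.87% in that order. The sums thus moved together with the results below, and their part in them was not tested. These are bulk samples, in which fewer cells of a type and less RNA per cell cannot be told apart.

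BMP2 and BMP4 took Neurog3 to the limit of detection, lowered Nkx2-2, Insm1 and Pax6, and raised Neurod1. BMP2 also raised Chga and lowered Isl1. BMP7 lowered Neurog3, Insm1, Nkx2-2 and Pax6, BMP5 lowered Insm1 and, in the unpaired fit, Neurog3, and BMP3 gave no change that passed the test. By a cut read from these data and not from the labels, replicate numbers paired the samples of BMP3, BMP4, BMP5 and BMP7 with the controls. With the number as a block, Chga also rose with BMP4 and BMP5, Neurod1 rose with BMP7 and Isl1 fell with BMP4, while Neurog3 with BMP5 missed the threshold (adjusted p = 0.0538). In each comparison a gene was called at an adjusted p under 0.05 (limma on log2 of the value plus 1, two-sided, Benjamini-Hochberg adjustment over 14746 genes). Those 14746 genes averaged 10 or more across all samples of the table, and all 9 enteroendocrine genes were among them. Pax4, with a mean of 8.68 over the 16 samples without BMP2, passed only through its BMP2 samples, so its calls in favour of BMP2 are no support for a difference.

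With BMP2, 2 of the 9 were called higher and 5 lower, where 36.8% of all tested genes were called higher and 38.4% lower. With BMP4, 1 was higher and 4 were lower, against 33.7% and 31.4% of all genes. BMP5 gave 0 higher and 2 lower, against 16.5% and 9.87%. BMP7 gave 0 higher and 4 lower, against 19.2% and 13.2%. With the replicate block the counts were 2 higher and 5 lower for BMP4, 1 and 1 for BMP5, and 1 and 4 for BMP7. With BMP3, 0 of the 9 and 0% of all genes were called by limma; none of the 9 had an unadjusted p under 0.05, and edgeR and DESeq2 on the recovered reads called 0 of the 9 too. The shares of all genes are so large for BMP2 and BMP4 that a call alone says little about the lineage there, and the sizes and directions below carry the description. The median log2 difference over the 9 was -0.75 for BMP4, -0.68 for BMP7, -0.61 for BMP2 and -0.35 for BMP5, while the median of all tested genes lay between -0.05 and 0.04 in these comparisons. Neurog3 is the lowest of the 9 in each of the 4, so these medians do not depend on its exact value.

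**Figure D1:**
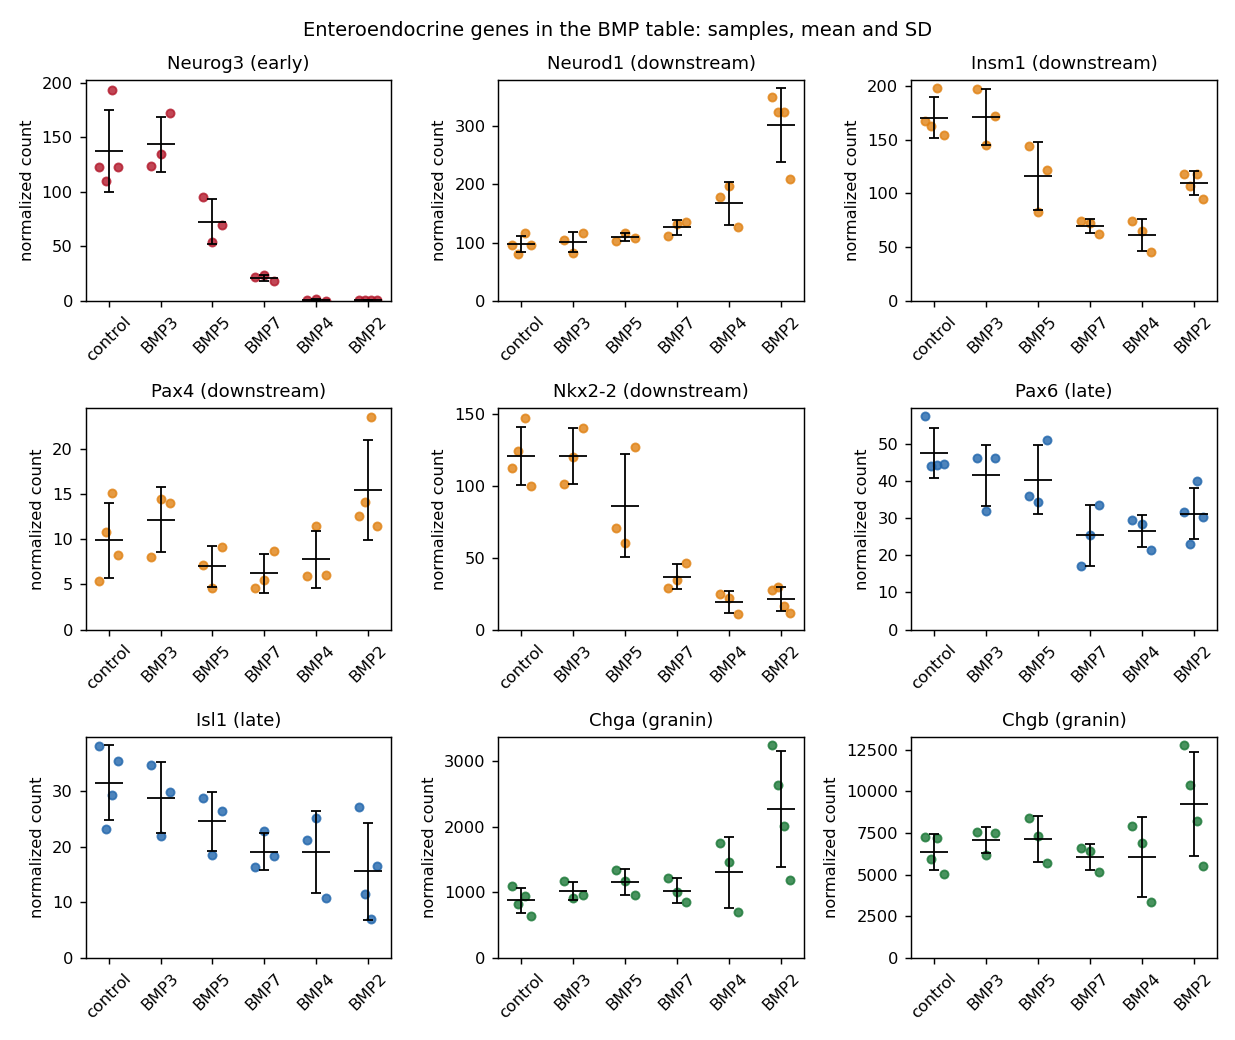
Normalized counts of the 9 genes in the BMP table (vertical axis, linear from 0) by group (horizontal axis), with each sample as a point and the mean and SD as a bar. Neurog3 stands at 110 to 193 in the controls and at 0 to 2.28 with BMP4 and BMP2, while Neurod1 and Chga reach their highest values with BMP2.

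Neurog3, the factor that commits a progenitor to the enteroendocrine fate, had 123, 110, 193 and 123 normalized counts in control replicates II, III, IV and VI. With BMP2 the values were 1.14, 1.28, 1.18 and 1.27, which is 1 read in each of the 4 libraries. With BMP4 they were 1.19, 2.28 and 0, or 3 reads over 3 libraries. Both groups lay far below every control, which together held 639 reads. The control level was 113 times that with BMP2 (exact 95% interval 43.9 to 416) and 117 times that with BMP4 (39.7 to 567); these intervals cover counting error only. The fitted log2 differences, -5.93 for BMP2 (adjusted p = 4.39e-12) and -6.13 for BMP4 (adjusted p = 5.04e-11), depend on the added 1 and are no bounds.

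BMP7 and BMP5 lowered Neurog3 in part. With BMP7 it had 21.8, 23.7 and 18.3 normalized counts, all below the controls, a log2 difference of -2.61 (95% interval -3.3 to -1.92, adjusted p = 8.37e-06). With BMP5 it had 95.1, 53.7 and 69.3, also below each control, a difference of -0.91 (adjusted p = 0.0482). The BMP5 call was a marginal one: with the replicate number as a block the difference was -0.81 (adjusted p = 0.0538), and the call was lost without BMP5 replicate III or VI or without any 1 of the 4 controls (adjusted p 0.0559 to 0.213), and with a pseudocount of 0.1 or a looser filter (0.0693 to 0.355). With BMP3 it had 124, 135 and 172, within the range of the controls (log2 difference 0.09, adjusted p = 1).

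The order of the group means of Neurog3 was therefore BMP3 (144), control (137), BMP5 (72.7), BMP7 (21.3), BMP2 (1.22) and BMP4 (1.16). BMP3 and control did not differ beyond their spread, and neither did BMP2 and BMP4 (log2 difference 0.2, 95% interval -0.49 to 0.89, adjusted p = 0.611). BMP7 stood above BMP2 (BMP2 against BMP7, -3.32, adjusted p = 8.98e-08) and above BMP4 (BMP4 against BMP7, -3.52, adjusted p = 1.14e-07). BMP5 and BMP7 did not overlap, yet their difference of 1.70 missed the threshold in the limma fit (adjusted p = 0.179). On the recovered reads it passed with edgeR (adjusted p = 0.0428) and DESeq2 (adjusted p = 0.000229).

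In the GENCODE annotation the Neurog3 locus overlaps Fam241b on the opposite strand, and whether counting used the strand is not given in the sources used here. Fam241b averaged 245 normalized counts in the controls, 200 with BMP2 and 294 with BMP4. It was thus well detected in the libraries with 0 to 2 reads of Neurog3.

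Neurod1, a basic helix-loop-helix factor switched on by Neurog3 and kept on in maturing cells, went the other way. The controls had 96.8, 81.3, 116 and 96.6 normalized counts. With BMP2 it had 350, 325, 325 and 209, all above every control, a log2 difference of 1.60 (SE 0.177, adjusted p = 1.34e-07). With BMP4 it had 178, 198 and 127, again without overlap with the controls (0.76, SE 0.191, adjusted p = 0.00183).

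The remaining ligands left Neurod1 close to the control level. BMP7 gave 112, 132 and 135, of which 1 lay within the control range (0.37, adjusted p = 0.144); with the replicate number as a block the difference was 0.45 and the call was made (adjusted p = 0.0455). BMP5 gave 103, 117 and 108, and BMP3 gave 104, 82.8 and 116, with no call. In the order of means BMP2 (302) exceeded BMP4 (168), with a log2 difference of 0.84 (adjusted p = 0.000739). BMP4 and BMP7 (126) overlapped and did not differ past the threshold (0.39, adjusted p = 0.113), except without BMP4 replicate VI (0.57, adjusted p = 0.0273) or under quantile normalization (0.69, adjusted p = 0.00612). Each later pair of neighbours down to the controls (97.7) did not differ beyond their spread.

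Scaling matters for Neurod1 with BMP4. The normalized counts summed to 27350549 on average with BMP2 and 26232395 with BMP4 but to 19885612 in the controls. Giving every sample the same total moved the median of all genes to -0.48 with BMP2 and -0.35 with BMP4. On that scale Neurod1 still rose with BMP2 (1.15, adjusted p = 2.89e-05) but not past the threshold with BMP4 (0.36, adjusted p = 0.135), although it remained above the shifted median.

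Insm1, a zinc-finger repressor needed for endocrine differentiation, fell with 4 of the ligands. Its controls were 167, 163, 198 and 154 normalized counts. BMP4 gave 74.7, 65 and 45.5 (log2 difference -1.47, adjusted p = 2.42e-06), and BMP7 gave 74.4, 72.9 and 62.5 (-1.27, adjusted p = 6.29e-05). Every one of these samples lay below the lowest control.

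The fall of Insm1 was smaller with BMP2, at 118, 107, 118 and 94.9 (-0.63, adjusted p = 0.00381), and with BMP5, at 144, 82.4 and 122 (-0.58, adjusted p = 0.0339). None of these samples reached the lowest control either. The BMP2 call was lost under quantile normalization (-0.15, adjusted p = 0.465), and the BMP5 call without BMP5 replicate III or VI or without control replicate II, III or IV (adjusted p 0.0552 to 0.241), without a filter (0.0616) or with only the groups compared (0.0611). BMP3 gave 197, 145 and 172, with replicate III (145) below the lowest control (154) and no call. Insm1 was higher with BMP2 than with BMP4 by 0.84 (adjusted p = 0.000893) and than with BMP7 by 0.64 (adjusted p = 0.0081; 0.25 and adjusted p = 0.298 with the same total in every sample).

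Nkx2-2, a homeobox factor that acts downstream of Neurog3 in hormone cell choice, had 112, 124, 147 and 99.9 normalized counts in the controls. With BMP2 it had 27.2, 29.4, 16.5 and 11.4 (log2 difference -2.54, adjusted p = 5.29e-07). With BMP4 it had 24.9, 21.7 and 10.8 (-2.66, adjusted p = 1.4e-06). The highest of these samples lay far below the lowest control.

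With BMP7 Nkx2-2 had 29, 34.6 and 46.2, also without overlap (-1.71, adjusted p = 0.000699). BMP5 gave 70.9, 60.2 and 127, of which 1 fell in the control range (-0.55, adjusted p = 0.254), and BMP3 gave 101, 120 and 140. With BMP2, BMP4 and BMP7 this was the largest fall after that of Neurog3 among the 9, and the ligand means stood in the same order as for Neurog3. BMP2 (21.1) and BMP4 (19.1) did not differ beyond their spread (0.12, 95% interval -0.58 to 0.83).

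Pax4, a paired homeobox factor of early endocrine cells, was the least abundant of the 9. It ranged from 5.33 to 15.1 normalized counts in the controls, from 11.4 to 23.5 with BMP2 and from 4.54 to 14.4 with the other ligands. No comparison with the controls passed the test. With BMP2 the difference was 0.62 (95% interval -0.14 to 1.38, adjusted p = 0.129). At a few reads per library a difference of this size is not resolved.

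Pax6, a paired homeobox factor of later endocrine cells, had 57.7, 44, 44.4 and 44.6 normalized counts in the controls. BMP7 gave 17.2, 25.5 and 33.7 (log2 difference -0.92, adjusted p = 0.00937). BMP4 gave 29.6, 28.5 and 21.5 (-0.83, adjusted p = 0.00785), and BMP2 gave 31.8, 23, 40 and 30.4 (-0.61, adjusted p = 0.0254). No sample of these 3 groups reached the lowest control.

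The Pax6 call with BMP2 was lost without BMP2 replicate III (adjusted p = 0.0887) or control replicate II (adjusted p = 0.0778), without a filter (adjusted p = 0.058) and under quantile normalization (-0.36, adjusted p = 0.137). The BMP7 call was lost without BMP7 replicate II (-0.67, adjusted p = 0.0771). BMP5 gave 35.9, 34.3 and 51.1 and BMP3 gave 46.2, 32.1 and 46.4, with no call.

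Isl1, a LIM homeobox factor of later endocrine cells, had 38.2, 23.2, 29.3 and 35.5 normalized counts in the controls. With BMP2 it had 27.2, 11.5, 7.06 and 16.5 (log2 difference -1.1, adjusted p = 0.00711), with 1 sample inside the control range. BMP4 gave 21.3, 25.1 and 10.8 (-0.75, adjusted p = 0.0821), and BMP7 gave 16.3, 22.8 and 18.3 (-0.68, adjusted p = 0.168), the latter all below the controls. The BMP4 difference was called with the replicate number as a block (-0.85, adjusted p = 0.04), without BMP4 replicate III (-0.98, adjusted p = 0.049) and after scaling all samples to 1 common total (-1.13, adjusted p = 0.0105). BMP3 and BMP5 ranged from 18.5 to 34.7. Both later factors thus had their lower values with BMP2, BMP4 and BMP7, with smaller log2 differences than those of Neurog3 and Nkx2-2.

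Chga, the granin most used as a marker of enteroendocrine cells, had 1100, 820, 947 and 635 normalized counts in control replicates II, III, IV and VI. With BMP2 it had 3240, 2640, 2010 and 1180, each above the highest control (log2 difference 1.31, SE 0.284, adjusted p = 0.000402). With BMP4 it had 1750, 1460 and 705 (0.50, adjusted p = 0.16). Replicate VI was the lowest in each of the 5 groups that have one, and the BMP4 groups overlapped only through it. With the replicate number as a block the BMP4 difference was 0.52 and passed the test (adjusted p = 0.00783), as it did without BMP4 replicate VI (0.90, adjusted p = 0.0138).

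BMP5 gave 1340, 1170 and 955 for Chga, BMP7 gave 1220, 1010 and 850, and BMP3 gave 1170, 912 and 966. Unpaired, none of these passed the test. Set against the control of the same number, Chga was 1.22 to 1.5 times higher with BMP5, 1.11 to 1.34 times with BMP7 and 1.02 to 1.11 times with BMP3, in 3 of 3 pairs each. With the block, BMP5 passed (0.43, adjusted p = 0.0414). Only BMP2 (2270) stood apart in the order of means: it exceeded BMP4 (1300) by 0.80 (adjusted p = 0.0277), a call lost without BMP2 replicate II or III or BMP4 replicate VI (adjusted p 0.0755 to 0.237). The means from BMP4 down to the controls (876) did not differ beyond their spread between neighbours.

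Chgb is the other granin. Its controls were 7250, 5920, 7180 and 5020 normalized counts, and with BMP2 it had 12800, 10400, 8230 and 5510, with 1 sample in the control range. The difference was 0.49 (95% interval -0.04 to 1.02, adjusted p = 0.0843), and 0.72 without BMP2 replicate VI (adjusted p = 0.0115). BMP4 gave 7920, 6910 and 3360 (-0.14), and the other ligands lay between 5160 and 8400. No ligand passed the main, unpaired limma fit for Chgb, while DESeq2 called it with BMP2 (adjusted p = 0.0367) and quantile normalization gave a fall with BMP4 (-0.65, adjusted p = 0.0461). With the replicate number as a block, limma also called Chgb with BMP2 (0.49, adjusted p = 0.00389). For BMP2 the numbers missed the cut for pairing, on replicate III alone. On the scale with the same total in every sample its BMP2 difference was 0.03.

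**Figure D2:**
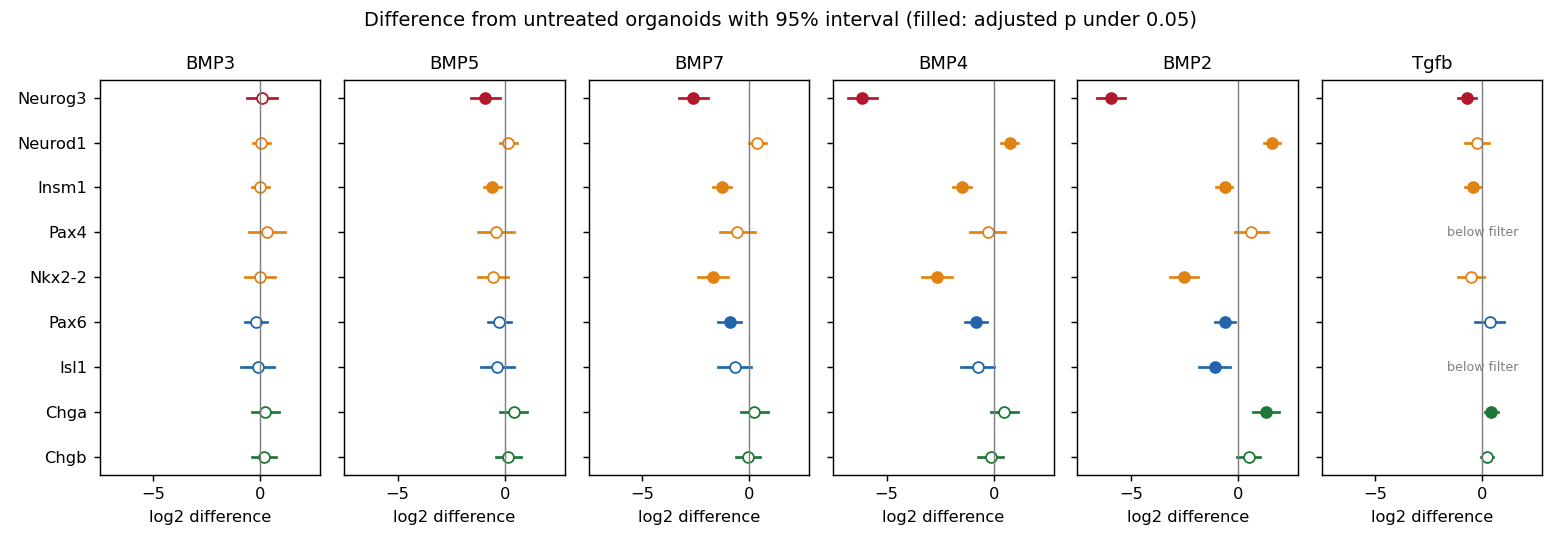
Log2 difference from the untreated organoids of the same table (horizontal axis) for each of the 9 genes (vertical axis) and each ligand, with the 95% interval as a line and filled points for an adjusted p under 0.05. Neurog3 reaches -5.93 with BMP2 and -6.13 with BMP4, while Neurod1 (1.60 and 0.76) lies to the right of 0 in the same panels.

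The level of a gene depended on which of the 5 BMP ligands was given for 6 of the 9 (limma F-test among the ligands), where 84.1% of all tested genes passed that test. These were Neurog3 (adjusted p = 1.16e-11), Nkx2-2 (1.54e-06), Neurod1 (1.77e-06), Insm1 (1.62e-05), Chga (0.0136) and Pax4 (0.0401). Pax6 (0.0587), Isl1 (0.141) and Chgb (0.213) did not pass. Pax4 had entered the test only through BMP2, the group in which it was highest, and the share of all genes passing was larger than that of the 9. With edgeR on the recovered reads 7 of the 9 passed and with DESeq2 5, the same range as on leaving out single samples.

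Direct comparisons of the ligands gave calls in both directions. BMP2 against BMP4 gave 5 of the 9, all higher with BMP2, against 66.8% of all genes: Neurod1, Insm1, Chga, Pax4 (0.90, adjusted p = 0.0488) and Chgb (0.63, adjusted p = 0.0471). The Pax4 and Chgb calls were each lost without BMP2 replicate II, III or IV or BMP4 replicate VI, and that of Pax4 also without BMP4 replicate II (adjusted p 0.0513 to 0.39). Pax4, Chga and Chgb were also not called with the same total in every sample, under quantile normalization or with only the groups compared (0.0519 to 0.131). BMP2 against BMP7 gave 6 of the 9, against 62.8% of all genes. Neurod1 (1.23), Chga (1.06) and Insm1 were higher with BMP2, as was Pax4 (1.17; 15.4 against 6.22 normalized counts, with the limit on its filter given above), and Neurog3 and Nkx2-2 (-0.83, adjusted p = 0.0382) were lower. Nkx2-2 lost this call without BMP2 replicate IV or VI or BMP7 replicate III or VI (adjusted p 0.0705 to 0.15), and Pax4 without BMP7 replicate II (adjusted p = 0.0635). With the same total in every sample Pax4 (0.81, adjusted p = 0.0849) and Chga (0.67, adjusted p = 0.0784) were not called, and Nkx2-2 was not without a filter, under quantile normalization or with only the groups compared (0.0663 to 0.0913). Chgb, higher with BMP2 by 0.55 (adjusted p = 0.0839), was called without BMP2 replicate VI (0.78, adjusted p = 0.0134).

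BMP4 against BMP7 gave 2 of the 9, Neurog3 and Nkx2-2 (-0.95, adjusted p = 0.0283), both lower with BMP4, against 59.8% of all genes. The Nkx2-2 call was lost without BMP4 replicate VI or BMP7 replicate III or VI (adjusted p 0.0517 to 0.164) and with only the groups compared (0.0586). BMP5 against BMP7 gave 0 of the 9 with limma, where 0.0136% of all genes were called. At an unadjusted p under 0.05 there were 4, Neurog3, Insm1, Nkx2-2 and Pax6, all higher with BMP5, and edgeR and DESeq2 each called 1, Neurog3.

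Ratios of genes within a library do not depend on how libraries were scaled, and they show how far Neurod1 and Neurog3 parted. Neurod1 over Neurog3 was 0.601 to 0.787 in the controls and 0.613 to 0.839 with BMP3. BMP5 gave ratios of 1.08 to 2.18, BMP7 of 5.14 to 7.38, and the highest were 86.8 to 150 in the 2 BMP4 libraries with a Neurog3 read, and 165 to 307 with BMP2. No group past BMP3 overlapped the controls, and the ratios with BMP4 and BMP2 rest on 1 or 2 reads of Neurog3 per library. Chga over Chgb, the ratio of the granins, was 0.126 to 0.152 in the controls. With BMP3 it was 0.129 to 0.155, overlapping the controls and close below the lowest BMP7 library. It was 0.158 to 0.185 with BMP7, 0.16 to 0.168 with BMP5, 0.21 to 0.221 with BMP4 and 0.214 to 0.254 with BMP2, above the controls in every library of these. The ratio of the 2 granins thus differed from the controls with BMP2, BMP4, BMP5 and BMP7. Within each group, the libraries stood in the same order for both granins.

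**Figure D3:**
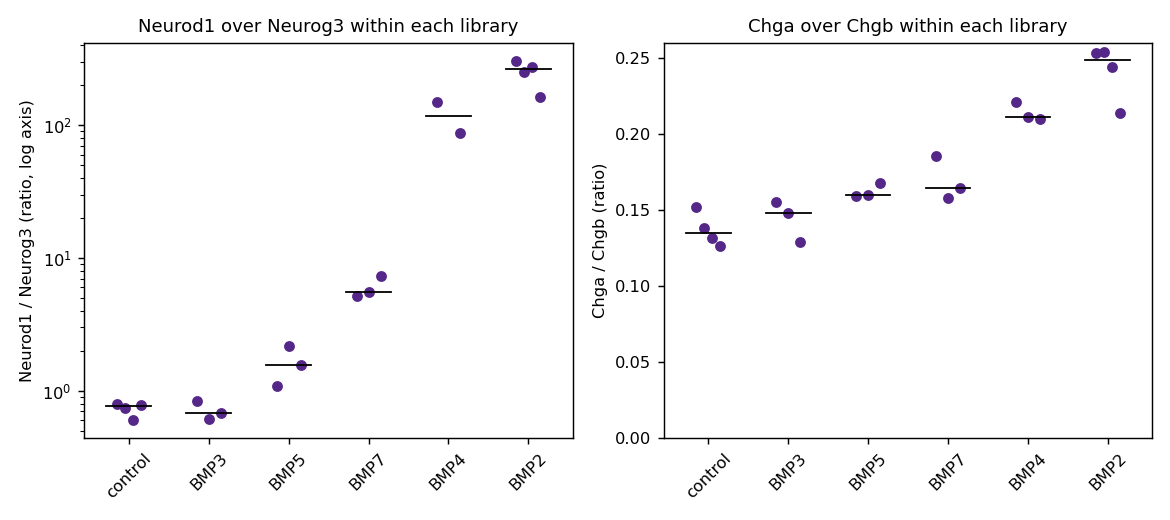
Ratio of Neurod1 to Neurog3 (left, log axis) and of Chga to Chgb (right, linear axis from 0) in each library of the BMP table, as points by group with the median as a line; the BMP4 library with no Neurog3 read has no point on the left. The Neurod1 to Neurog3 ratio runs from 0.601 to 0.787 in the controls and from 165 to 307 with BMP2, and Chga to Chgb from 0.126 to 0.152 and from 0.214 to 0.254.

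Tgfb, a ligand of the sister branch of the family, lowered Neurog3 and Insm1 and raised Chga. These values are in TPM with another pseudocount, so their log2 differences are not set against those of the BMPs. Of the 9 genes, 7 passed a minimum mean of 1 TPM, and Pax4 and Isl1 did not. Of those 7, 1 was called higher and 2 lower, where 27.4% of all 12959 tested genes were called higher and 29.4% lower (limma on log2 of TPM plus 0.5). The median log2 difference over the 7 was -0.27, and -0.04 over all genes. The depth of these libraries is unknown. The summed stem cell and proliferation markers were lower here too, at 203 to 205 TPM with Tgfb against 2480 to 2890 TPM in the controls, and their part in the results was not tested.

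Neurog3 had 5.36, 4.45 and 5.83 TPM in control replicates I, II and III and 3.18, 2.35 and 3.47 TPM with Tgfb. Each treated sample lay below each control, and the log2 difference was -0.71 (95% interval -1.13 to -0.3, adjusted p = 0.012). Insm1 had 3.08, 3.14 and 2.66 TPM against 2.31, 1.76 and 2, also without overlap (-0.46, adjusted p = 0.0417). The Insm1 call was lost without Tgfb replicate II or III or control replicate I or II (adjusted p 0.0699 to 0.0975).

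Chga had 24.7, 21.8 and 22.2 TPM in the controls and 36.2, 26.7 and 29.0 TPM with Tgfb, again without overlap (0.40, adjusted p = 0.0318). That call was lost without Tgfb replicate I or III or any control (adjusted p 0.0519 to 0.105) and under quantile normalization (0.0722). Chgb had 108, 96.0 and 98.6 against 138, 107 and 109 TPM, with overlap (0.22, 95% interval -0.06 to 0.49). Chga over Chgb was 0.225 to 0.228 in the controls and 0.249 to 0.267 with Tgfb.

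Nkx2-2 had 5.47, 3.89 and 4.83 TPM against 4.53, 2.21 and 2.96 with Tgfb, with overlap (-0.52, 95% interval -1.13 to 0.08). It was called without Tgfb replicate I (-0.76, adjusted p = 0.0284). Neurod1 had 2.31, 1.95 and 2.48 against 2.54, 1.35 and 1.58 TPM (-0.27, 95% interval -0.84 to 0.29), and so was not seen to rise. Pax6 had 0.896, 0.710 and 1.37 against 1.19, 1.14 and 1.81 TPM (0.34, 95% interval -0.34 to 1.02). Isl1 lay between 0.606 and 1.35 TPM and Pax4 between 0.202 and 0.62 TPM in all 6 samples.

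**Figure D4:**
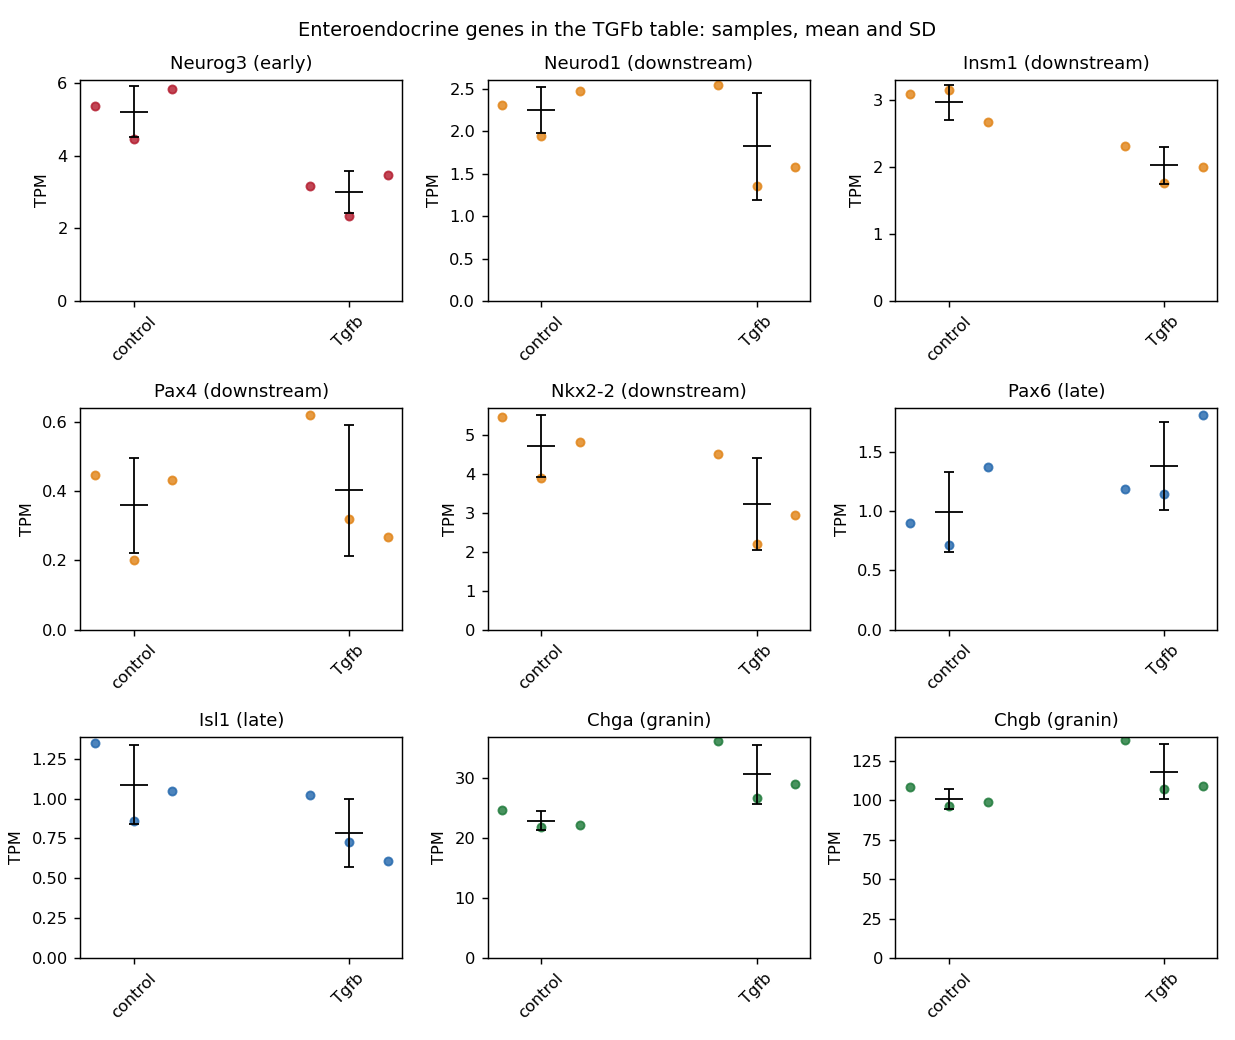
TPM of the 9 genes in the TGFb table (vertical axis, linear from 0) in 3 untreated and 3 Tgfb-treated samples, with each sample as a point and the mean and SD as a bar. Neurog3 runs from 4.45 to 5.83 TPM in the controls and from 2.35 to 3.47 with Tgfb, while Chga runs from 21.8 to 24.7 and from 26.7 to 36.2.

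Of 6 genes that act before or beside Neurog3 in choosing the secretory fate, 4 were lower with BMP2, where 38.4% of all genes were, and 5 with BMP4, where 31.4% were. Their median log2 difference was -1.31 and -0.68. With BMP5 and BMP7 1 each was lower (3 each with the replicate block), where 9.87% and 13.2% of all genes were. With Tgfb 3 of 5 tested were lower against 29.4% of all genes, with BMP3 0 were, and none was higher with any ligand. With the same total in every sample the count was 6 for BMP2 and 2 for BMP7. Dll1, a Notch ligand shown by secretory progenitors, fell with every ligand but BMP3. On the log2 scale the fall was 2.57 (BMP2), 0.99 (BMP4), 0.97 (BMP5) and 1.4 (BMP7), and in the TPM values 1.59 (Tgfb). Atoh1, the master factor of secretory cells, fell with BMP2 (-1.71, adjusted p = 5.77e-06) and Tgfb (-1.69, adjusted p = 0.000181), but had 277 ± 50.5 normalized counts with BMP4 (SD, n = 3) and 273 ± 54.1 in the controls (n = 4). Neurog3 was thus at 0 to 2 reads in BMP4 libraries with a control level of Atoh1 on the authors' scale. With the same total in every sample the median of all genes moved to -0.35 with BMP4.

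Gfi1, a repressor downstream of Atoh1, fell with BMP2 (-3.06, adjusted p = 4.28e-09) and by less with BMP4 (-0.71, adjusted p = 0.0349). Hes6 fell with BMP2 (-0.90) and BMP4 (-0.64). Hes1, the Notch effector that represses Atoh1 and Neurog3, fell with BMP4 (-1.08, adjusted p = 0.0114), a call lost without BMP4 replicate III (adjusted p = 0.104). With Tgfb it was -0.21 (adjusted p = 0.473), and -0.48 without Tgfb replicate III (adjusted p = 0.0111). Dll4, another Notch ligand, was called lower with BMP4 (-0.50) and Tgfb (-0.40, adjusted p = 0.0461). The BMP4 calls of Dll4 and Gfi1 were each lost without BMP4 replicate III or VI or control replicate II, IV or VI (adjusted p 0.0547 to 0.196), and that of Dll4 with Tgfb without any 1 library but Tgfb replicate III (0.0566 to 0.105). With the replicate number as a block, Atoh1 was also called lower with BMP5 (-0.58, adjusted p = 0.00546) and BMP7 (-0.53, adjusted p = 0.00719). Gfi1 was called likewise (BMP5 -0.65, adjusted p = 0.0344; BMP7 -0.78, adjusted p = 0.0109), and Atoh1 with BMP5 was also called without BMP5 replicate II (-0.86, adjusted p = 0.0268).

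The Id genes rose while Neurog3 fell. Id1 had 133 ± 27.4 normalized counts in the controls (n = 4), 2810 ± 115 with BMP2 (n = 4), 2680 ± 782 with BMP4, 1870 ± 429 with BMP7 and 843 ± 206 with BMP5 (n = 3 each). Id3 went from 29.1 ± 5.97 to 1890 ± 197, 2550 ± 555, 844 ± 347 and 187 ± 168 in the same order. All 8 of these differences passed the test, and with BMP3 neither gene did. Id2 rose with BMP4 (2.65), BMP7 (1.78) and BMP2 (1.77), and with BMP5 its 0.73 had an adjusted p of 0.122 (called with the block, 0.62, adjusted p = 0.0291, and without BMP5 replicate VI, 1.07, adjusted p = 0.0452). Id4 was called lower with BMP2 (-0.82, adjusted p = 0.0283), a call lost without BMP2 replicate III or IV or control replicate II (adjusted p 0.0607 to 0.131). With Tgfb, Id1 (2.81) and Id3 (1.41) rose, and Id2 was at -0.04 (adjusted p = 0.828).

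Tcf3 and Tcf4, E protein genes whose products pair with Neurog3 and Neurod1, took opposite directions with BMP2 and BMP4. Tcf3 rose with BMP2 (1.03, adjusted p = 8.7e-08) and fell with BMP4 (-1.14, adjusted p = 1.3e-07). Tcf4 rose with BMP2 (0.82) and fell with BMP4 (-0.75); it also rose with BMP5 (0.67), BMP7 (0.51) and Tgfb (1.24), the BMP7 call being lost without BMP7 replicate II (adjusted p = 0.0503). Tcf12 fell with BMP4 (-0.73, adjusted p = 4.47e-06), and its rise of 0.27 with BMP2 turned to -0.19 with the same total in every sample and to -0.17 under quantile normalization.

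Among 14 tested genes of a list of other enteroendocrine lineage factors, 2 were higher and 6 lower with BMP2, and 2 higher and 10 lower with BMP4 (median log2 difference -0.52 and -1.27). Over all genes 36.8% were higher and 38.4% lower with BMP2, so the count of lower ones there was near the background, and 33.7% and 31.4% with BMP4. With the same total in every sample the list gave 1 higher and 11 lower with BMP2, and 1 and 10 with BMP4. BMP5 gave 1 higher and 1 lower, BMP7 1 and 3, Tgfb 2 and 2 of 7 tested, and BMP3 0, with shares of all genes as given for the 9 genes. Sox4, a factor of early enteroendocrine progenitors that other epithelial cells express too, went from 5910 ± 1510 normalized counts in the controls (SD, n = 4) to 36800 ± 4740 with BMP2 (n = 4) and to 797 ± 251 with BMP4 (n = 3). It also rose with BMP5 (1.31), BMP7 (1.21) and Tgfb (1.61). Tox3 fell with every ligand but BMP3. Its log2 difference was -0.91 with BMP5 and, in the TPM values, which are not set against those of the BMPs, -1.72 with Tgfb.

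Lmx1a, a factor of serotonin-making cells, rose with BMP2 (0.97, adjusted p = 0.00955), a call lost with the same total in every sample (0.52, adjusted p = 0.161). Prdm16 was called higher with BMP4 (0.27, adjusted p = 0.0456) and with Tgfb (0.64, adjusted p = 0.0377); with the same total in every sample the BMP4 value turned to -0.13. Its BMP4 call was lost without any 1 of the 3 BMP4 samples or control replicate III or VI (adjusted p 0.0633 to 0.115), and its Tgfb call without Tgfb replicate I or II or control replicate II or III (0.107 to 0.126). With the block it was called higher with BMP7 (0.31, adjusted p = 0.012), as it was without BMP7 replicate VI (0.36, adjusted p = 0.0386), and with BMP2 it was -0.21 and called lower without BMP2 replicate IV (-0.27, adjusted p = 0.0355).

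Of 14 tested granule and peptide-processing genes, 9 were higher and 1 lower with BMP2 (median 0.86), where 36.8% and 38.4% of all genes were. With the same total in every sample 5 were higher and 3 lower, Scgn (-0.51, adjusted p = 0.0343) and Rab3c (-0.82, adjusted p = 0.00199) being called lower on that scale. BMP4 gave 4 higher and 3 lower (median 0.34; 33.7% and 31.4% of all genes), 6 and 3 with the replicate block, and 1 and 4 at 1 common total. BMP5 gave 2 and 0 (4 and 0 with the block; 16.5% and 9.87% of all genes), BMP7 2 and 1 (19.2% and 13.2%), and Tgfb 2 and 0 of 10 (27.4% and 29.4%). Pam, which amidates peptide hormones, rose with BMP2 from 516 ± 39.4 to 2220 ± 244 normalized counts (SD, n = 4 each; 2.10, adjusted p = 5.74e-11), and with BMP5 (0.87), BMP7 (0.72) and Tgfb (1.16). Cpe, a carboxypeptidase of the granule, rose with BMP2 (1.32, adjusted p = 5.48e-05), and with BMP5 it passed with the block (0.46, adjusted p = 0.0362) and not in the unpaired fit (0.41, adjusted p = 0.263). The prohormone convertase Pcsk1 rose with BMP2 (0.73) but not past the threshold with the same total in every sample (0.27, adjusted p = 0.34). Ptprn2 fell with BMP2 (-0.96), BMP4 (-0.86) and BMP7 (-0.68).

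Smaller calls of this list rested on single libraries. With BMP4, Pam (0.39, or -0.01 with the same total in every sample) was lost without BMP4 replicate III or VI or control replicate III or VI (adjusted p 0.0524 to 0.0871), and Pcsk1 (0.71) without BMP4 replicate II or III or control replicate VI (0.0642 to 0.111). Scgn with BMP4 (-0.65) was lost without BMP4 replicate III (adjusted p = 0.16) or control replicate VI (0.0692). It was also lost under quantile normalization (0.1) and with only the groups compared (0.0678). Rab3c fell with BMP4 (-0.87, adjusted p = 0.00166). With Tgfb, Cpe (0.43, adjusted p = 0.0239) was lost without Tgfb replicate I or II or control replicate I or III (0.0583 to 0.0864).

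Of 10 tested hormone genes, 6 were higher and 2 lower with BMP2 (36.8% and 38.4% of all genes), or 4 and 3 at 1 common total per sample. BMP4 gave 4 and 2, near or below the 33.7% and 31.4% of all genes. BMP5 gave 4 and 0 (16.5% and 9.87%), BMP7 4 and 2 (19.2% and 13.2%), Tgfb 5 and 0 (27.4% and 29.4%) and BMP3 none. With the replicate block BMP4 and BMP7 each gave 4 and 3. Pyy, the peptide YY gene, stood at 1.71 ± 0.991 normalized counts in the controls and at 11300 ± 2720 with BMP2 (SD, n = 4 each). Tph1, which makes serotonin, rose with BMP2 (2.82), BMP4 (1.88), BMP7 (1.35), Tgfb (0.62) and BMP5 (0.81, adjusted p = 0.0423). The BMP5 call of Tph1 was lost without BMP5 replicate II or III or control replicate III, IV or VI (adjusted p 0.0683 to 0.205), and its Tgfb call without control replicate II (0.0574). The proglucagon gene Gcg fell with BMP4 (-2.67), BMP2 (-2.35) and BMP7 (-1.94).

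Tac1 fell with BMP2 (-1.48), BMP4 (-1.69) and BMP7 (-0.82), the last lost without any BMP7 sample or control replicate II or IV (adjusted p 0.0585 to 0.17). Gip was 1160 ± 319 normalized counts with BMP2 and 825 ± 181 in the controls (0.47, adjusted p = 0.0717), and was called without BMP2 replicate IV or control replicate II (0.0251 and 0.0375). With Tgfb, Gip (0.27, adjusted p = 0.0242) was lost without Tgfb replicate I or III or control replicate I or II (0.0545 to 0.0718), and Gcg (0.22, adjusted p = 0.0615) was called without Tgfb replicate I (0.29, adjusted p = 0.019). With BMP2 the hormones thus took both directions while Chga rose.

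**Figure D5:**
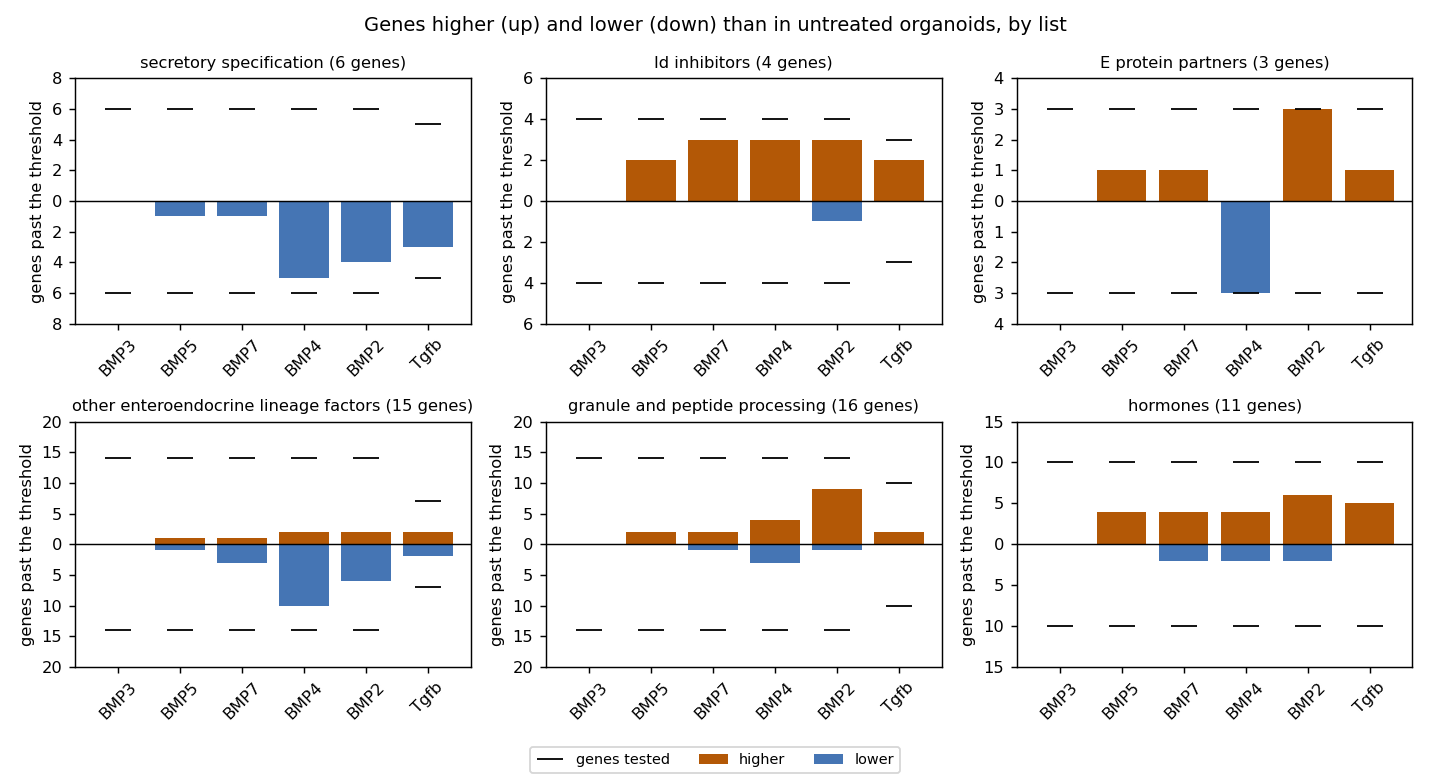
Number of genes of each list called higher (bars up) or lower (bars down) than in untreated organoids at an adjusted p under 0.05 (vertical axis), by ligand (horizontal axis), with the number of genes tested as a dash. The secretory specification list has bars down only, with 4 of 6 for BMP2 and 5 of 6 for BMP4, while granule and peptide processing has 9 up and 1 down with BMP2.

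The genes whose pattern was most like that of Neurog3 over the 20 samples of the BMP table, by Pearson correlation of log2 of the normalized count plus 1, were Rassf4 (r = 0.985), Gm34567 (0.981), Cttnbp2 (0.978), Colca2 (0.976) and Zfp41 (0.976). Those most like Chga were Slc10a2 (0.922), Klf2 (0.916), Ptprn (0.911), Ppp1r15a (0.907) and Cpe (0.903). Of these, Ptprn and Cpe are granule genes of the list above. The 20 samples fall into 6 treatment groups, so these values mostly describe the group means.

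Markers that could bring these genes from other cells gave the following levels, in summed normalized counts unless said otherwise. The summed level of the enteric neuron markers was 115 to 142 normalized counts in the controls, 576 to 680 with BMP2, and 121 to 215 with BMP4, BMP5 and BMP7. Most of it was Ret, at 102 ± 7.83 in the controls and 584 ± 35.4 with BMP2 (SD, n = 4 each). Hand2, a defining marker of enteric neurons, had no read in any of these samples. The mesenchymal list, with Dcn and Lum at 0, summed to 5.33 to 39.9 in the controls and 33.3 to 55.4 with BMP2, and the immune list to 40.4 to 58.7 and 24 to 72.7. Enteric glia markers, with Sox10 at 0, summed to 19 to 22.4 in the controls and 38.4 to 47.7 with BMP2. The endothelial pair Pecam1 and Cdh5 summed to 569 to 774 in the controls, 830 to 1020 with BMP2 and 865 to 1030 with BMP4, nearly all of it Pecam1, with Cdh5 at 0 in the controls and at 31.2 ± 8 with BMP2 (SD, n = 4). Among the other epithelial types, the tuft list ran from 363 to 430 in the controls, 1480 to 2310 with BMP2, 774 to 781 with BMP4, 619 to 762 with BMP7 and 546 to 627 with BMP5. The goblet list ran from 18000 to 34000 in the controls and 62300 to 115000 with BMP4, and the Paneth list from 72400 to 92600 in the controls, 28300 to 73900 with BMP2 and 49000 to 62500 with BMP7. With Tgfb the goblet list ran from 194 to 239 TPM against 453 to 531 TPM, the Paneth list from 7640 to 10000 against 11100 to 13800 TPM, and the tuft list from 10.7 to 13.7 against 6.28 to 9.53 TPM. Summed epithelial markers were 724000 to 939000 with BMP2, against 117000 to 133000 in the controls. With Tgfb the epithelial markers were 13200 to 18000 TPM against 3280 to 3570 TPM, and the enteric neuron list 3.12 to 5.01 against 1.75 to 2.1 TPM. The part of these shifts in the results was not tested.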

How the data were processed

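RNA-seq was analysed from 26 of the 28 samples, 20 in the BMP table and 6 in the TGFb table; the 2 mesenchymal samples were not analysed here. The submitters' processing notes name Trim Galore, Salmon, DESeq2 and build GRCm39, without versions. The deposited BMP values are a signal: the authors' gene counts divided by a size factor per sample, read from the values, which keep 3 significant digits. Whole reads were recovered: 100% of 180721 values of 1 to 20 reads were whole within 0.1, and 21% of values above 0 exceed 999 reads and are known to 3 digits only. The deposited TGFb values are TPM, since each column sums to 1000000, and TPM keeps no depth.

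Groups came from the labels, with 0 columns unmapped. The series design speaks of more than 1 sequencing run and does not assign samples to runs. Tests used limma 3.58.1 in R 4.3.3 with an intensity trend, two-sided, 1 fit of 6 groups for the BMP table (pseudocount 1, minimum mean 10) and 1 of 2 groups for the TGFb table (pseudocount 0.5, minimum mean 1, because these genes are low). Log2 differences understate changes of low genes. Alternatives included edgeR 4.0.16 and DESeq2 1.42.0 on the recovered reads, a replicate block, other scalings, filters and pseudocounts, and leaving out each sample. Promoters were scanned with Python 3.11.15.

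Replicate numbers paired the samples where every same-numbered pair deviated together (correlation over 0.1). This held for BMP3, BMP4, BMP5 and BMP7 against control (0.158 to 0.553), BMP4 against BMP7 (0.206 to 0.293) and BMP5 against BMP7 (0.15 to 0.489). It did not hold for comparisons with BMP2 or for Tgfb. BMP2 against control missed it on replicate III alone (0.0182), with replicates II, IV and VI at 0.195 to 0.421. The cut was set on these data, as the labels state no pairing. The block fit of the BMP table held all 20 samples, so its calls for the other ligands also used the numbers of the BMP2 samples.

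The 9 genes and all lists were chosen with earlier results of these data known. By rule the text names the 9 genes, all genes of the Id, E protein and secretory specification lists, the 3 most abundant of each other list and those called against their list's majority, and the 5 genes most like Neurog3 and Chga. Not every gene this rule names is reported here.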

Additional observations from a re-analysis of the deposited data

Results flagged for a closer look

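A sample apart from the rest of its group was looked for among the 9 genes in the groups of 4 samples, 18 sets of a gene and a group in all, by the gap of the end sample to its neighbour as a share of the group's range. About 1 set in 20 is picked out by chance, and 2 were. Neurog3 in the untreated organoids of the BMP table was 193 normalized counts in replicate IV, with the other 3 at 110 to 123. Without that sample the fall of Neurog3 with BMP5 was -0.74 (adjusted p = 0.139). Pax6 in the same controls was 57.7 in replicate II, with the others at 44 to 44.6, and without it the fall with BMP2 was -0.51 (adjusted p = 0.0778).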

How the results depend on the processing

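Among the recalculated values of the 9 genes, 1346 kept their direction and side of the threshold, 78 lost a call, 23 gained one, and none of the called ones turned its sign; 46 uncalled values in 18 gene and comparison pairs did. Against the controls, the falls of Neurog3 and Nkx2-2 with BMP2, BMP4 and BMP7 were called under every alternative run. So were the fall of Isl1 and the rises of Neurod1 and Chga with BMP2. The falls of Insm1 with BMP4 and BMP7, of Pax6 with BMP4 and of Neurog3 with Tgfb also kept their calls wherever they were tested. The number of the 9 called with BMP5 went from 2 to 1 with a pseudocount of 0.1, a minimum mean of 1 or only the groups compared, and to 0 without a filter. With Tgfb it went from 3 to 1 at a minimum mean of 10 TPM, which leaves fewer of these genes. For BMP2 against BMP4 it went from 5 to 3 with a minimum mean of 1 or no filter and to 2 with the same total, quantile normalization or only the groups compared. For BMP2 against BMP7 it went from 6 to 3 with the same total, for BMP4 against BMP7 from 2 to 1 with only the groups compared, and for BMP5 against BMP7 from 0 to 1 with a pseudocount of 5, edgeR or DESeq2. The cause of these moves was not tested.

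Leaving out 1 sample at a time gave 0 to 2 for BMP5, 1 to 3 for Tgfb, 2 to 5 for BMP2 against BMP4, 5 to 6 for BMP2 against BMP7, 1 to 2 for BMP4 against BMP7, 6 to 8 for BMP2, 5 to 6 for BMP4, 3 to 4 for BMP7, 0 for BMP3 and 5 to 7 for the test among ligands. Tcf12 with BMP2 turned to -0.19 with the same total and -0.17 under quantile normalization, Prdm16 with BMP4 to -0.13 and Pam with BMP4 to -0.01 with the same total.

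Where numbers missed the cut for pairing, the replicate block moved the count from 7 to 8 with BMP2 (Chgb, adjusted p = 0.00389). With Tgfb the count went from 3 to 4 (Insm1 lost at 0.0685, Nkx2-2 and Chgb gained at 0.0364 and 0.0413). It went from 5 to 4 for BMP2 against BMP4 (Pax4, 0.065) and from 6 to 7 for BMP2 against BMP7 (Chgb, 0.00706). Among the named genes of the lists, Gip and Prdm16 with BMP2 and Gcg with Tgfb gained a call, and Dll4 with Tgfb lost one. Over whole lists with BMP2, other lineage factors called lower went from 6 to 8 and granule genes called higher from 9 to 10. Hormones with BMP2 went from 6 higher and 2 lower to 7 and 3. With Tgfb, other lineage factors called lower went from 2 to 1, and Paneth genes called lower from 1 to 2. Samples correlated best with their own number in 6 of 8 cases (BMP2 against control) and 2 of 6 (Tgfb), a hint from the data. Where numbers met the cut, the replicate block changed no call of the 9 genes or named list genes beyond those given with the results. Among the marker lists, Paneth genes called lower went from 0 to 2 with BMP4 and with BMP7. Goblet genes called higher went from 2 to 3 with BMP4. Those called lower went from 1 to 2 with BMP5 and from 0 to 1 with BMP7. With BMP5, tuft genes called higher went from 2 to 3. Stem and proliferation genes and immune genes called lower each went from 0 to 1 with BMP5. Depth limits Pax4, at 4.54 to 23.5 normalized counts, and Neurog3 with BMP2 and BMP4.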

Other observations

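Ratios within a library set Neurod1 beside Nkx2-2 and Insm1, other factors that act downstream of Neurog3. Pax4 is too low for such a ratio. With BMP2 it was 1.31 to 2.35 times its same-numbered control, at 9 to 20 reads against 6 to 17. These values are no support for a rise, since Pax4 passed the filter only through BMP2 and the numbers of these samples missed the cut for pairing. Neurod1 over Nkx2-2 was 0.656 to 0.967 in the controls, 0.69 to 1.03 with BMP3, 0.85 to 1.94 with BMP5, 2.92 to 3.86 with BMP7, 7.15 to 11.8 with BMP4 and 11.1 to 19.7 with BMP2. Neurod1 over Insm1 was 0.499 to 0.627 in the controls, 0.528 to 0.674 with BMP3, 0.715 to 1.42 with BMP5, 1.51 to 2.16 with BMP7, 2.38 to 3.05 with BMP4 and 2.2 to 3.04 with BMP2. Chga over Neurog3 was 4.91 to 8.94 in the controls, 13.8 to 21.8 with BMP5 and 42.6 to 56 with BMP7. In the TGFb table it was 3.8 to 4.89 in the controls and 8.35 to 11.4 with Tgfb, also without overlap.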
